A study of Mus musculus with 12 samples.

Results

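Interferon-stimulated genes are the genes that cells switch on in response to interferons. A list of 45 of them was followed in bulk RNA-seq of mouse liver. The members were found in the count table by matching its Entrez identifiers to mouse symbols, and they are 45 of the 27179 genes in the table. All 45 passed the filter on low counts, among 13947 genes tested. They were placed in a group of 34 genes that are mainly known as targets of type I interferon and a group of 11 that are mainly known as targets of type II interferon, namely Gbp2 to Gbp7, the immunity-related GTPases Iigp1, Igtp, Irgm1 and Irgm2, and Irf1.

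Livers came from 4 groups of male mice, with 3 mice and 3 libraries in each. Mice were 8 weeks old when they were placed on a chow diet (CD) or a low-protein diet (LPD), and after 1 week on that diet they were injected with a control vector (Vec) or with plasmids for c-MET and ΔN90-β-catenin. Plasmids were pushed into hepatocytes by a hydrodynamic injection into the tail vein and integrated by the Sleeping Beauty transposase, and every mouse, vector controls included, had that procedure. The diets were kept until harvest. The groups with the control vector are called CD Vec and LPD Vec, those with the c-MET and β-catenin plasmids are called CD oncogene and LPD oncogene, and all were harvested when the CD oncogene mice reached their end point, so both oncogene groups had carried the oncogenes for the same time but were not at the same stage of disease. The labels call both Vec groups WT, and that they were given a vector is taken from the study itself. The strain is given as a mixed 129/Ola and C57BL/6 background in 1 place and as C57/Bl3 in another. Only part of the hepatocytes take up injected plasmids, and the RNA came from pieces of whole liver, although the labels give hepatocyte as the cell type.

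Type I interferons act through the receptor made of Ifnar1 and Ifnar2, and the kinases Jak1 and Tyk2 then activate Stat2, which acts with Irf9 at the interferon-stimulated response element (ISRE). Type II interferon, the product of Ifng, acts through Ifngr1 and Ifngr2 and the kinases Jak1 and Jak2, and its targets carry the gamma-activated site (GAS). It induces Irf1, which itself binds ISRE-like elements. The classes overlap, since many targets respond to both. In the liver these genes are best known from viral infection, in hepatocytes as well as in Kupffer cells.

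The promoters carry the letters of these elements. Windows from 250 bases before to 50 bases after the start site were taken from RefSeq (GRCm38.p6), and 32 of the 45 members had one. The ISRE letters searched were GAAA, any 2 bases and GAAA again, and the GAS letters were TTCNNNGAA, on both strands. An ISRE match was in the windows of 21 of the 32 members (65.6%), against 3.99% of the 27025 genes that have a window, and a GAS match was in 10 (31.2%), against 9.55%. By class, 14 of 24 type I members (58.3%) and 7 of 8 type II members (87.5%) had an ISRE match, and 5 of 24 (20.8%) and 5 of 8 (62.5%) had a GAS match. Both were in 4 of the 8 type II windows (50%), in 3 of the 24 type I windows (12.5%) and in 0.614% of all. A match describes these letters and is not evidence that a factor was bound.

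The 130 bases before the start site are shown for 4 type I members and 4 type II members whose levels are described below, written 5′ to 3′ on the strand of the gene, with the ISRE and GAS letters, read on either strand, in capitals. The windows are those of Isg15 (chr4:156200819-156200948, minus strand), Oas1a (chr5:120907526-120907655, minus strand), Rsad2 (chr12:26456453-26456582, minus strand), Ifit1 (chr19:34640759-34640888, plus strand), Gbp2 (chr3:142620533-142620662, plus strand), Gbp7 (chr3:142530206-142530335, plus strand), Igtp (chr11:58199426-58199555, plus strand) and Irgm2 (chr11:58214847-58214976, plus strand).
Isg15: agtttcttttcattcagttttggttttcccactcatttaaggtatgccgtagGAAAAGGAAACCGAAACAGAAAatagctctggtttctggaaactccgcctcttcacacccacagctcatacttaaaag
Oas1a: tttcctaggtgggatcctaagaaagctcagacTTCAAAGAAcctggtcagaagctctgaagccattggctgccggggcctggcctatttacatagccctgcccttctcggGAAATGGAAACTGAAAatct
Rsad2: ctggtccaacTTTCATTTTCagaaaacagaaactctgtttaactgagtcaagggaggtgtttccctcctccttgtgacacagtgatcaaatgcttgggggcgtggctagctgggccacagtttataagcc
Ifit1: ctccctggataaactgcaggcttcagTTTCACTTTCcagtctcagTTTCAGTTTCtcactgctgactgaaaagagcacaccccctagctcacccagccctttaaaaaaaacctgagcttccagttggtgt
Gbp2: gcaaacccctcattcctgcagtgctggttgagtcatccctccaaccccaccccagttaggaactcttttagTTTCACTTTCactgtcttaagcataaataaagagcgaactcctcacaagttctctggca
Gbp7: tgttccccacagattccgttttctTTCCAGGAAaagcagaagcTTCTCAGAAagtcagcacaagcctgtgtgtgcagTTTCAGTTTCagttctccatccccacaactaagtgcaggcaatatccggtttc
Igtp: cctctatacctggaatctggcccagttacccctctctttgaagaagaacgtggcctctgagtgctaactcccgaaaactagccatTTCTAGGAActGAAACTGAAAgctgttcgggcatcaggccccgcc
Irgm2: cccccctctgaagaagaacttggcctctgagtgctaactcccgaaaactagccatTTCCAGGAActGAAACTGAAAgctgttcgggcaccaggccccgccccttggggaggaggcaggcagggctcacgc

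In Isg15 the 3 ISRE matches overlapped in 1 tract, and in Oas1a 2 overlapping matches lay directly before the start site. The Ifit1 and Gbp2 stretches held ISRE letters alone, 2 and 1 matches respectively. Rsad2 had 1 ISRE match, at -120, and Oas1a also had a GAS match, at -98. Igtp and Irgm2, which lie close together on chromosome 11, each had a GAS match followed by an ISRE match, with 11 bases between their first letters in both genes. Aligned on the ISRE without gaps, the promoters of Igtp and Irgm2 were identical at 94 of 100 bases. Gbp7 had 2 GAS matches, at positions -106 and -87 from the start site, and an ISRE match at -53.

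Libraries held 19476209 to 31990267 counts. Levels below are in CPM, counts divided by the library size as scaled by TMM, so a gene at 1 CPM had about 17.6 counts in the library that was smallest after scaling. The hepatocyte markers summed to between 86234 and 151284 CPM over 8 genes, macrophage markers to between 108 and 395 CPM over 10 genes, and stellate cell markers to between 65.6 and 415 CPM over 6, so the libraries hold liver tissue and not hepatocytes alone. In bulk tissue, fewer cells of a type and less RNA per cell cannot be told apart. The deposited table carries a dataset number for each column, whose meaning is not given, and these numbers form 3 runs. CD oncogene replicates 1 and 2 make up a run of their own, whereas replicate 3 lies in the run that also holds the 3 LPD oncogene libraries, 2 LPD Vec libraries and 1 CD Vec library.

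The library of CD oncogene replicate 3 stood apart from the rest in these genes. It was the highest of all 12 libraries for 39 of the 45 members, 32 of the 34 type I members and 7 of the 11 type II members. Its level was a median of 2.12 times the mean of replicates 1 and 2 of its group, from 1.09 times for Mx2 to 9.92 times for Ifi44. The ratio was at least 2 for 25 members (55.6%), but for 2.29% of all genes tested, whose median ratio was 1.0. For that reason the calls and medians by class that rest on the CD oncogene livers are given with and without this library. Members that lost a call without it are named.

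**Figure D1:**
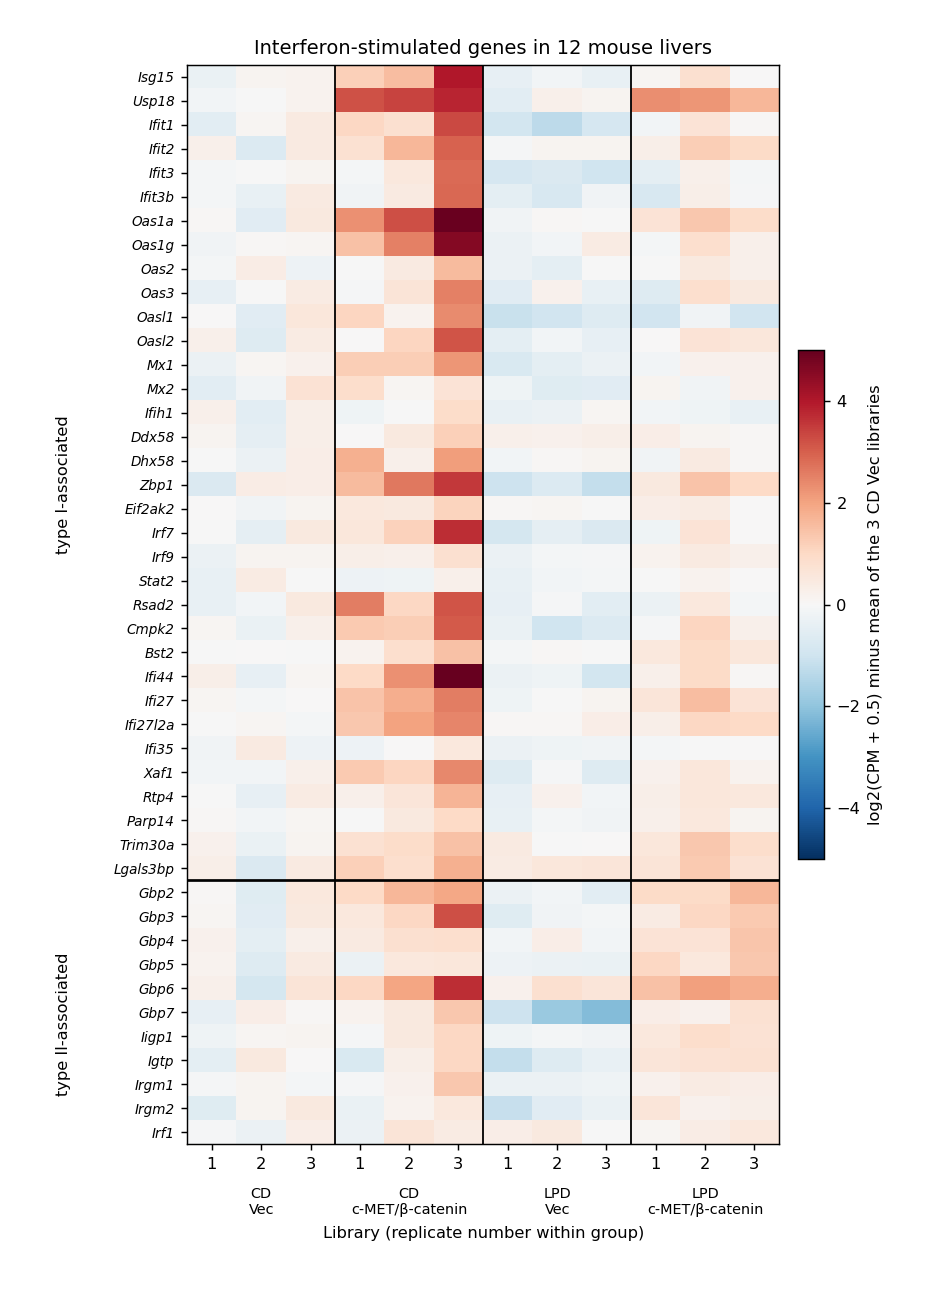
Heat map of the 45 members in the 12 libraries, as log2(CPM + 0.5) minus the mean of the 3 CD Vec libraries on that scale. Columns are libraries in their groups, rows are genes, type I members above the line and type II members below it. CD oncogene replicate 3 is the column with the highest value for 39 of the 45 members.

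Of the 34 type I members, 24 were higher in oncogene livers on CD and none was lower, with a median log2 fold change of 1.83. Of the 11 type II members, 3 were higher and none lower, with a median of 0.63. Of all genes tested in this comparison, 18.7% were higher and 16.7% lower, with a median of -0.01. Oncogene and Vec libraries did not overlap for 20 type I and 4 type II members, all of them higher, where 22.2% of all genes were higher without overlap and 20.4% lower. The counts were again 20 and 4 without replicate 3, but this is no check on that library. Replicate 3 was the highest of its group for 43 of the 45 members, so it seldom set the lowest value, on which the overlap rests. A gene is called changed here at an adjusted p under 0.05 in edgeR's quasi-likelihood test. The p-values rest on the spread between mice within groups, estimated over all 4 groups together. Without replicate 3 the counts were 18 type I and 2 type II members, with medians of 0.89 and 0.23. Of all genes 17.8% were higher in that fit. In a fit on the 6 CD libraries alone the counts were 16 and 2, where 12.3% of all genes were higher. The calls lost without replicate 3 were those of Ifit1, Ifit3, Oasl1, Oasl2, Irf7, Rtp4 and Gbp3. Under scaling by total counts alone 7 type II members were called higher, but 32% of all genes were then higher and their median was 0.28.

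The oligoadenylate synthetase family, whose active enzymes make the second messenger that activates RNase L, held the largest changes on CD, those of Oas1g and Oas1a. Oas1a stood at 1.38, 0.739 and 2.08 CPM in the CD Vec livers and at 8.4, 16.3 and 55.9 CPM in the CD oncogene livers. On LPD it was at 1.10, 1.39 and 1.28 CPM in Vec livers and at 2.39, 4.18 and 2.89 CPM in oncogene livers. The oncogene libraries lay above the Vec libraries on both diets, and those on CD lay above those on LPD. The log2 fold change of Oas1a on CD was 4.25 (SE 0.66, 19-fold, adjusted p = 0.000568), and it was 3.12 without replicate 3 (adjusted p = 0.000293).

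Oas1g, a close copy of Oas1a on chromosome 5 whose reads may be split between them, was at 0.357, 0.512 and 0.521 CPM in CD Vec livers and at 2.17, 4.98 and 22.8 CPM in CD oncogene livers. In LPD Vec livers it was at 0.288, 0.380 and 0.769 CPM, and in LPD oncogene livers at 0.391, 1.23 and 0.656 CPM. The groups were apart on CD and overlapped on LPD, and most values outside the CD oncogene group were below 1 CPM. Its log2 fold change on CD was 4.41 (SE 0.84, adjusted p = 0.00196) and fell to 2.92 without replicate 3 (adjusted p = 0.00224). In all, 4 of the 6 Oas members were higher on CD, the others being Oasl1 (1.5) and Oasl2 (2.08), and both of these lost the call without replicate 3 (adjusted p = 0.234 and 0.266). Oas2 (0.96, adjusted p = 0.102) and Oas3 (1.80, adjusted p = 0.0855) were not called, and without replicate 3 they were at 0.24 and 0.40.

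Ifi44, an interferon-induced protein with antiviral activity, had the value that rested most on 1 library. It was at 1.63, 0.796 and 1.35 CPM in CD Vec livers and at 2.92, 7.87 and 53.5 CPM in CD oncogene livers, against 0.912, 0.972 and 0.410 CPM in LPD Vec and 1.56, 2.84 and 1.27 CPM in LPD oncogene livers. No oncogene library overlapped the Vec libraries of its diet. The log2 fold change on CD was 4.07 (SE 0.93, adjusted p = 0.0059) and fell to 2.08 without replicate 3, still past the threshold (adjusted p = 0.00949).

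The ubiquitin-like modifier Isg15 and the protease Usp18, which removes it from proteins and also blocks signalling at Ifnar2, were both higher, but they differed between mice. Isg15 was at 4.23, 5.91 and 6.20 CPM in CD Vec and at 12.8, 16.8 and 94.3 CPM in CD oncogene livers, and at 3.98, 4.82 and 4.0 CPM in LPD Vec and 5.77, 9.61 and 5.38 CPM in LPD oncogene livers. Usp18 was at 2.55, 2.84 and 3.28 CPM in CD Vec and at 30.3, 34.8 and 46.2 CPM in CD oncogene livers, and at 1.87, 3.55 and 3.23 CPM in LPD Vec and 16.4, 14.9 and 10.3 CPM in LPD oncogene livers. Replicate 3 was 6.38 times the mean of its group mates for Isg15 but 1.42 times for Usp18, and for both genes the oncogene libraries lay above the Vec libraries of the same diet with no overlap. Across diets, Isg15 in LPD oncogene livers overlapped that in CD Vec livers. On CD the log2 fold change was 2.92 for Isg15 (SE 0.65, adjusted p = 0.00528) and 3.68 for Usp18 (SE 0.27, adjusted p = 9.66e-06). Without replicate 3 these were 1.43 (adjusted p = 0.00256) and 3.49 (adjusted p = 2.57e-05).

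**Figure D2:**
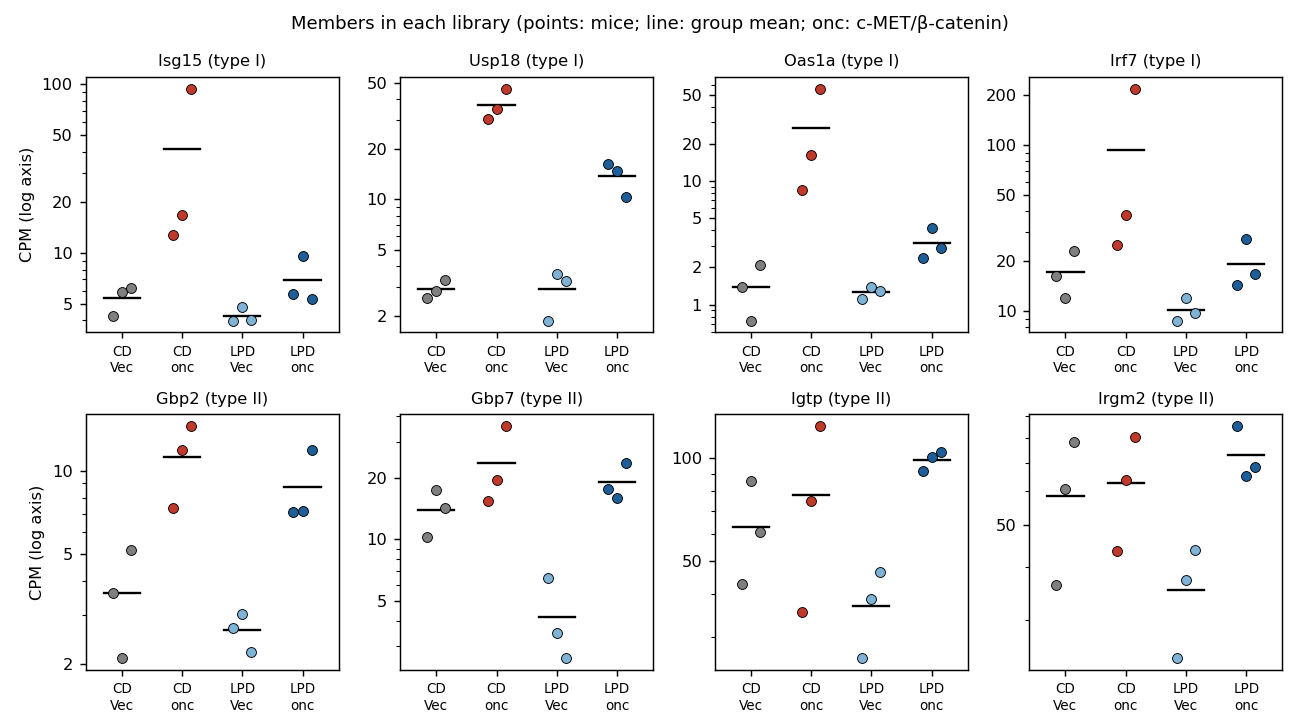
Levels of 4 type I and 4 type II members in each library, in CPM on a log axis, with a point for each mouse and a line at the mean of the group of 3. For Isg15, Oas1a and Irf7 the highest point is CD oncogene replicate 3, whereas Usp18 is high in all 3 of those mice, and Gbp7 is lowest in the 3 LPD Vec livers.

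Of the remaining type I families, Ifit1, Ifit2 and Ifit3 of the 4 tested Ifit genes, whose products bind viral RNA, were higher on CD, with log2 fold changes of 2.24, 2.13 and 1.74, and of 0.93, 1.3 and 0.26 without replicate 3. Ifit3b, a near-identical copy of Ifit3, was not called (1.87, adjusted p = 0.0735), and without replicate 3 it was at 0.15. Ifit1 was at 2.85, 4.66 and 6.25 CPM in CD Vec and 9.59, 7.96 and 47.5 CPM in CD oncogene livers, and at 2.06, 1.48 and 2.21 CPM in LPD Vec and 3.91, 7.40 and 4.64 CPM in LPD oncogene livers. Both oncogene groups of Ifit1 lay above their Vec groups, but without replicate 3 Ifit1 and Ifit3 lost the call on CD (adjusted p = 0.0584 and 0.477). Mx1 and Mx2, relatives of antiviral GTPases that are defective in most laboratory strains, are both annotated as transcribed pseudogenes. Mx1 was higher by 2.03 (SE 0.37, adjusted p = 0.00149), while Mx2 differed by 0.53 (adjusted p = 0.237).

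Among 5 sensors of viral nucleic acid, Zbp1, Dhx58 and the kinase Eif2ak2 were higher on CD. Ifih1 and Ddx58, the helicases that sense viral RNA, were not called (0.28 and 0.62, adjusted p = 0.489 and 0.0801), and without replicate 3 they were at -0.16 and 0.25. Zbp1, a sensor of Z-form nucleic acid, was at 2.09, 5.0 and 4.79 CPM in CD Vec and 12.3, 25.8 and 48.2 CPM in CD oncogene livers, and at 1.54, 2.11 and 1.33 CPM in LPD Vec and 5.38, 10.7 and 8.0 CPM in LPD oncogene livers. The oncogene libraries were above the Vec libraries on both diets. The change of Zbp1 on CD was 2.86 (SE 0.49, adjusted p = 0.000957), and 2.26 without replicate 3 (adjusted p = 0.0022).

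Of the 3 type I transcription factors 1 was called. Irf7, which amplifies type I interferon production, was higher on CD by 2.45 (SE 0.68, adjusted p = 0.0170), but its level was 219 CPM in replicate 3 against 25.1 and 37.8 CPM in the other two mice, and the call was lost without that library (0.86, adjusted p = 0.0552). Irf9 (0.47, adjusted p = 0.0525) and Stat2 (-0.09, adjusted p = 0.750), which act together at the ISRE, were not called.

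Of the 12 other type I effectors 10 were higher on CD. They included Rsad2, known as viperin, and its neighbour Cmpk2, which together make an antiviral nucleotide (2.55 and 2.31, and 2.05 and 1.38 without replicate 3), the mitochondrial proteins Ifi27 and Ifi27l2a (2.02 and 2.34), and Xaf1 (1.88). Bst2, or tetherin, which holds virus particles at the cell surface, had the highest level per length of exon among type I members in all 4 groups, with group means from 112 to 219 CPM per kb. It was at 103, 105 and 102 CPM in CD Vec and 118, 187 and 289 CPM in CD oncogene livers, and at 96.3, 108 and 101 CPM in LPD Vec and 151, 199 and 153 CPM in LPD oncogene livers. The oncogene groups of Bst2 were above the Vec groups on both diets, and the difference on CD was 0.94 (SE 0.25, adjusted p = 0.0113). Ifi35 (0.10) and Parp14 (0.55, adjusted p = 0.0632) were not called.

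The 3 type II members that were higher on CD were guanylate-binding proteins, large GTPases that coat the vacuoles of intracellular pathogens. Gbp2 was at 3.62, 2.10 and 5.15 CPM in CD Vec and 7.34, 11.9 and 14.5 CPM in CD oncogene livers, and at 2.69, 3.04 and 2.21 CPM in LPD Vec and 7.09, 7.16 and 11.9 CPM in LPD oncogene livers. Its oncogene groups stood above the Vec groups on both diets, by 1.62 on CD (SE 0.35, adjusted p = 0.00356).

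Gbp6 was at 3.31, 1.25 and 4.58 CPM in CD Vec and 6.07, 12.3 and 41.5 CPM in CD oncogene livers, and at 3.26, 5.15 and 4.46 CPM in LPD Vec and 8.4, 12.8 and 10.8 CPM in LPD oncogene livers. Gbp3 was at 3.67, 2.10 and 4.89 CPM in CD Vec and 5.08, 7.38 and 35.5 CPM in CD oncogene livers, and at 2.02, 2.91 and 3.08 CPM in LPD Vec and 4.69, 7.44 and 9.01 CPM in LPD oncogene livers. Both had their highest value in CD oncogene replicate 3 and no overlap between oncogene and Vec libraries on either diet. Gbp6 was higher on CD by 2.70 (SE 0.64, adjusted p = 0.00743), which without replicate 3 was 1.58 (adjusted p = 0.0189), and Gbp3 by 2.16 (SE 0.64, adjusted p = 0.0221), which without replicate 3 was 0.80 (adjusted p = 0.119). Gbp genes of a cluster are similar in sequence, and how reads that map to several of them were counted is not stated.

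None of the 4 immunity-related GTPases, which act on the same vacuoles as the Gbp proteins, was called on CD. Iigp1, the type II member with the highest level per length in all 4 groups, was at 211, 262 and 276 CPM in CD Vec and 238, 348 and 504 CPM in CD oncogene livers, and these groups overlapped (0.54, SE 0.22, adjusted p = 0.0787). Igtp was at 42.8, 85.5 and 60.6 CPM in CD Vec and 35.5, 75.0 and 124 CPM in CD oncogene livers (0.31, SE 0.38, adjusted p = 0.563). Irgm1 and Irgm2 differed by 0.63 and 0.10 (adjusted p = 0.0980 and 0.825), and Irf1, the transcription factor, by 0.29 (adjusted p = 0.372). Without CD oncogene replicate 3 Iigp1 fell to 0.23. In that fit 2 of the 11 type II members were below 0 on CD, the lowest at -0.19, against 0 with that library.

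On LPD, the oncogene livers lay above the Vec livers without overlap for 33 of the 45 members, 23 of 34 type I members and 10 of 11 type II members, where 13.5% of all genes did so in that direction and 11.6% in the other. Few differences passed the test, however, with 1 type I member (Usp18) and 2 type II members (Gbp2 and Gbp7) called higher and none lower, where 1.15% of all genes were called higher and 0.165% lower. The median log2 fold change was 0.72 for type I members and 1.31 for type II members. The fit shares its estimate of the spread over all 4 groups, CD oncogene replicate 3 included. In a fit on the 6 LPD libraries alone, 6 type I and 8 type II members were called higher, where 2.53% of all genes were, and without replicate 3 the numbers were 2 and 4, where 1.12% were.

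Gbp7 changed most among the type II members on LPD. It was at 6.48, 3.46 and 2.62 CPM in LPD Vec and 17.6, 16 and 23.6 CPM in LPD oncogene livers, whereas the CD groups were at 10.3, 17.5 and 14.2 CPM in Vec and 15.5, 19.5 and 35.9 CPM in oncogene livers. The LPD Vec livers were the lowest of the 4 groups for Gbp7 and overlapped none of them, and the other 3 groups overlapped each other. The difference on LPD was 2.18 (SE 0.38, 4.55-fold, adjusted p = 0.0173) and that on CD 0.76 (SE 0.36, adjusted p = 0.124). Gbp2 was higher on LPD by 1.71 (SE 0.35, adjusted p = 0.0373), a call that was kept in 4 of the 12 fits that leave out 1 library.

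The immunity-related GTPases, which did not pass the test on CD, were separated between oncogene and Vec livers on LPD in all 4 cases, although none passed the threshold there either. Igtp was at 26.0, 38.7 and 46.3 CPM in LPD Vec and 91.4, 100.5 and 104 CPM in LPD oncogene livers (1.41, SE 0.39, adjusted p = 0.127). Iigp1 was at 212, 229 and 218 CPM in LPD Vec and 359, 452 and 415 CPM in LPD oncogene livers (0.90, SE 0.23, adjusted p = 0.0829). Irgm1 and Irgm2 differed by 0.59 and 1.05 (adjusted p = 0.471 and 0.139). In the fit on the LPD libraries alone Iigp1, Igtp and Irgm1 were called (adjusted p = 0.00488, 0.0152 and 0.00693) and Irgm2 was not (adjusted p = 0.0538).

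Gbp5, an activator of inflammasomes, was a low gene at 1.17, 0.455 and 1.51 CPM in CD Vec, 0.693, 1.63 and 1.68 CPM in CD oncogene, 0.720, 0.718 and 0.667 CPM in LPD Vec and 2.49, 1.61 and 3.28 CPM in LPD oncogene livers. Its groups overlapped on CD and were separate on LPD, where the difference was 1.80 (SE 0.46, adjusted p = 0.0913). Gbp3, Gbp4 and Gbp6 were also separate on LPD, with differences of 1.40, 1.02 and 1.31 and adjusted p of 0.458, 0.154 and 0.470. Irf1 was the type II member that was not separated (0.05, adjusted p = 0.975). Among type I members Usp18 was higher by 2.26 (SE 0.26, adjusted p = 0.00182) and Zbp1 by 2.27 (SE 0.50, adjusted p = 0.0528).

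**Figure D3:**
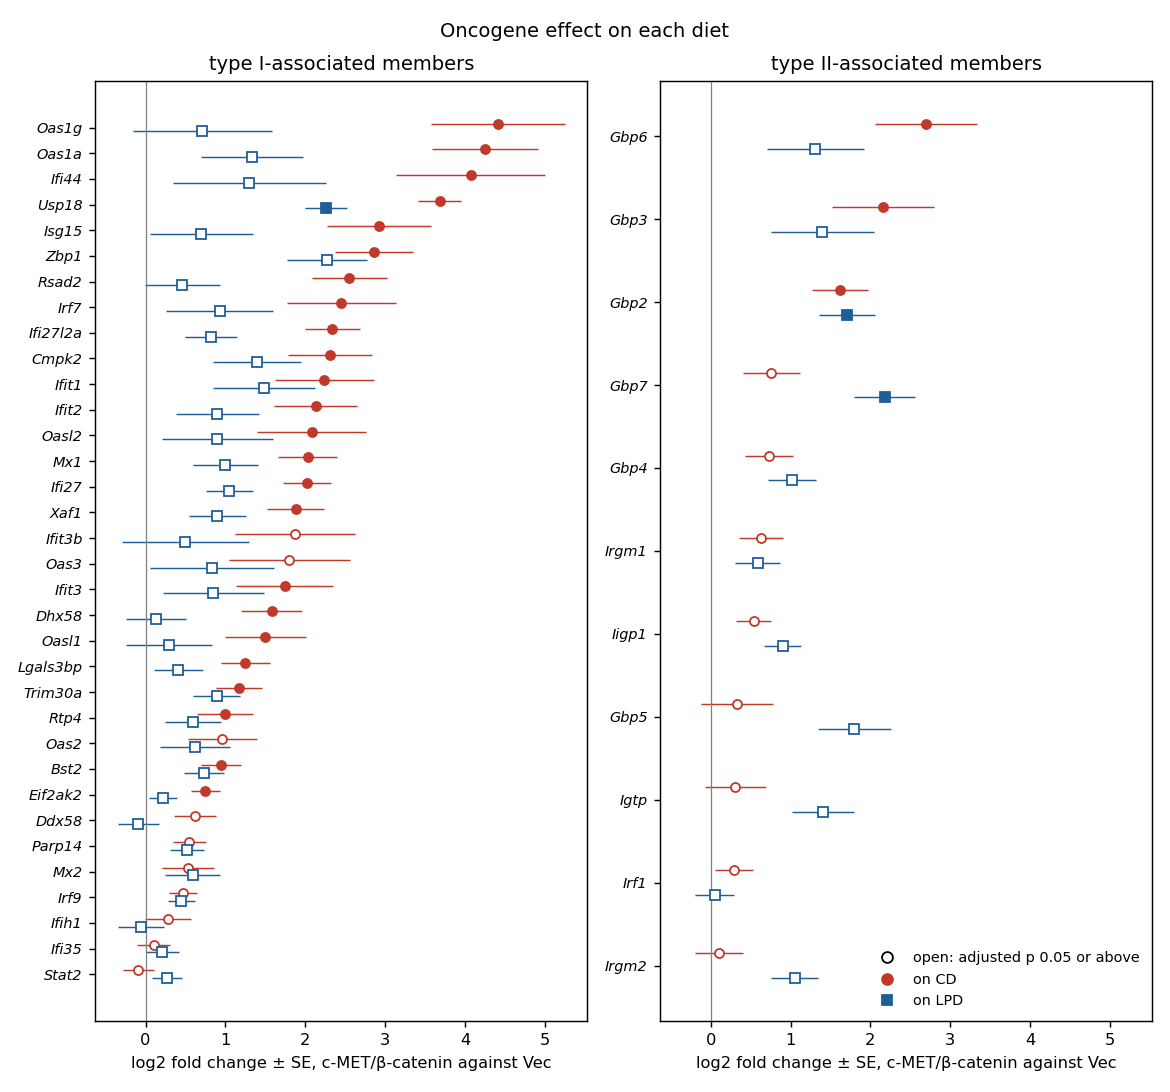
Difference between oncogene (c-MET/β-catenin) and Vec livers for each member, as log2 fold change, on CD (circles) and on LPD (squares), with bars of 1 SE from edgeR and filled symbols where the adjusted p is under 0.05. Filled circles mark 24 type I and 3 type II members on CD, and filled squares mark Usp18, Gbp2 and Gbp7 on LPD.

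Diet by itself moved no member past the threshold in Vec livers. Of the 45 members 37 had a lower fitted level on LPD than on CD, with medians of -0.25 for type I and -0.42 for type II members, where the median over all genes was -0.03. Without CD Vec replicate 3 the medians were -0.10 and -0.11 with 31 members lower, and without LPD Vec replicate 1 they were -0.15 and -0.27, also with 31 lower. By edgeR 0 members were called in either direction, against 0.186% of all genes higher and 0.122% lower, 3 members had an unadjusted p under 0.05, and DESeq2 called 1, Gbp7. The LPD Vec livers lay below the CD Vec livers without overlap for 5 members, where 9.02% of all genes did so, and above them for none, where 8.13% did so. The largest differences were those of Gbp7 (-1.74, SE 0.38, adjusted p = 0.0801) and Igtp (-0.77, adjusted p = 0.564) among type II members, and of Ifit1 (-1.26, adjusted p = 0.576) and Zbp1 (-1.24, adjusted p = 0.439) among type I members.

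Between the oncogene groups, part of the type I members were called lower on LPD. Of the 34 type I members 16 were lower and none higher, with a median of -1.37, and 14 were separated without overlap. No type II member was called, 0 had an unadjusted p under 0.05, DESeq2 called 0, and the median was 0.02. Over all genes tested 11.3% were lower and 8.66% higher in this comparison, and 20.1% were lower and 19.2% higher without overlap. Without CD oncogene replicate 3, 9 type I members were lower and 0 type II members were called, with medians of -0.46 and 0.24. In that fit 10.7% of all genes were lower, 9 type I members lay above 0, and 3 type II members had an unadjusted p under 0.05. The type I count without overlap was again 14, but it could hardly change. Replicate 3 was the highest of its group for 33 of the 34 type I members. For the 1 type I and 4 type II members then higher without overlap, the share over all genes was not determined. The count of type I members called lower was 6 without LPD oncogene replicate 3 and 7 without LPD oncogene replicate 1. In a fit on the 6 oncogene libraries alone it was 8. Of all genes 6.27%, 7.08% and 9.46% were lower in these fits, in that order. A term for the header runs takes up CD oncogene replicates 1 and 2, which form a run of their own. Replicate 3 is then the only CD oncogene library left in this comparison. The medians with that term were -2.07 for type I and -0.33 for type II members. They rest on that library and cannot tell run and mouse apart.

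The largest decreases were those of Oas1g (-3.67, SE 0.78, adjusted p = 0.00764), Ifi44 (-3.48, SE 0.88, adjusted p = 0.0181), Oas1a (-3.08, SE 0.60, adjusted p = 0.0053) and Isg15 (-2.57, SE 0.64, adjusted p = 0.0164). Without replicate 3 these were -2.19, -1.49, -1.95 and -1.08, and Ifi44 lost the call (adjusted p = 0.0558), as did Ifit1, Dhx58, Zbp1, Irf7, Cmpk2 and Ifi27. Calls for Usp18 (-1.42, SE 0.24, adjusted p = 0.00244), Oas1a, Oas1g, Mx1 (-1.88) and Rsad2 (-2.50) were held in all 12 fits that leave out 1 library, and the other 11 were not. Among type II members the largest differences were -1.18 for Gbp3 and -0.90 for Gbp6 (adjusted p = 0.203 and 0.317). Without CD oncogene replicate 3 these turned to 0.19 and 0.23. The other 9 type II members lay between -0.37 for Gbp2 and 0.89 for Gbp5.

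Usp18 was the member called in 4 of the 5 comparisons and the 1 member for which the oncogene effect differed between diets by edgeR with TMM scaling and no further term. The interaction, which is the oncogene effect on LPD minus that on CD, was -1.42 for Usp18 (SE 0.36, adjusted p = 0.0344). It was below 0 at this threshold for 4.42% of all genes and above 0 for 4.49%. The call for Usp18 was kept in 4 of the 12 fits that leave out 1 library. It was lost without CD oncogene replicate 3 (-1.23, adjusted p = 0.0561) and with the replicate block (adjusted p = 0.0599). With a term for the header runs, which leaves 1 CD oncogene library, the value for Usp18 was -1.52. Under total counts alone Ifi27l2a was called beside Usp18. The median interaction was -0.95 for type I members, of which 31 of 34 were below 0, and 0.29 for type II members, of which 7 of 11 were above 0. Without CD oncogene replicate 3 the medians were -0.01 and 0.60, with 17 of 34 type I members below 0 and 9 of 11 type II members above 0. The negative type I median thus rested on that library. In the same fit Gbp7 was called (1.87, adjusted p = 0.0314). With a term for the header runs, which leaves replicate 3 alone in the CD oncogene group, the medians were -1.54 and -0.07. Without LPD oncogene replicate 3 they were -0.85 and -0.02, so the sign for type II members was not stable. For Gbp5 and Gbp7, the type II members with the largest interactions, the values were 1.47 (SE 0.65, adjusted p = 0.177) and 1.43 (SE 0.52, adjusted p = 0.107).

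Mouse by mouse, the classes were compared by the mean over members of the log2 difference from the CD Vec mean. Type I members stood at 0.83, 1.06 and 2.41 in the CD oncogene mice and at 0.13, 0.69 and 0.31 in the LPD oncogene mice. Type II members stood at 0.12, 0.76 and 1.45 in the former and at 0.63, 0.73 and 0.99 in the latter. The oncogene groups did not overlap for type I members, and for type II members the LPD mice lay inside the range of the CD mice.

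In Vec livers the classes went together. The CD Vec mice were at -0.08, -0.16 and 0.24 for type I and -0.09, -0.21 and 0.30 for type II members, and the LPD Vec mice at -0.35, -0.21 and -0.23 and at -0.43, -0.23 and -0.35. The type II level minus the type I level was -0.71, -0.30 and -0.96 in the CD oncogene mice and 0.50, 0.04 and 0.68 in the LPD oncogene mice. In the 6 Vec livers that difference lay between -0.12 and 0.06. The difference was thus below 0 in 3 of 3 oncogene mice on CD, not in replicate 3 alone, and above 0 in 3 of 3 on LPD, where replicate 2 was close to 0. No test was made of this score, because its members were chosen with results of these data known.

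**Figure D4:**
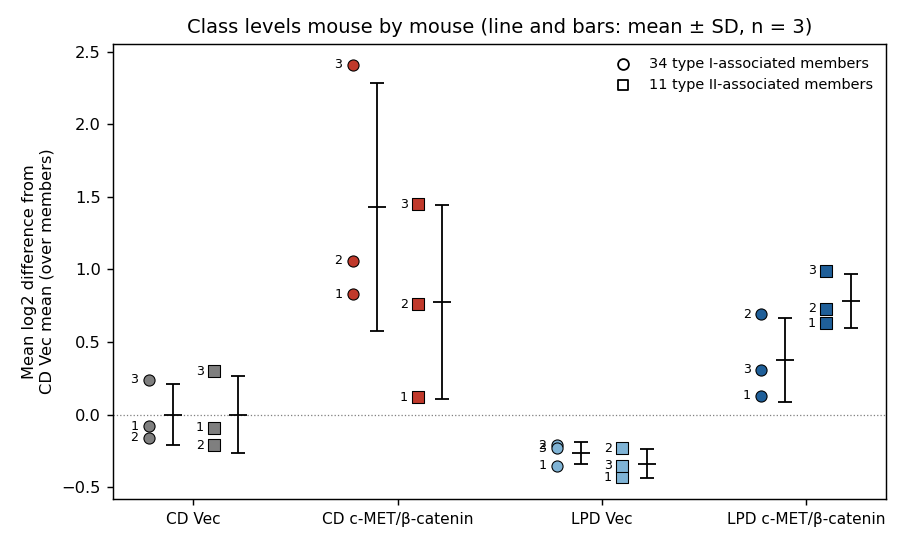
Mean log2 difference from the CD Vec mean over the 34 type I members (circles) and the 11 type II members (squares) for each mouse, on log2(CPM + 0.5). Numbers are replicates, and lines with bars are the mean ± SD of 3 mice. For type I members the CD oncogene mice are at 0.83 to 2.41 and the LPD oncogene mice at 0.13 to 0.69, whereas for type II members the LPD mice, at 0.63 to 0.99, are inside the range of the CD mice.

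Run and group are partly confounded, because CD oncogene replicates 1 and 2 share their run with no other group. Within the run that holds all 4 groups, 1 CD oncogene library is left, replicate 3. There the median log2 difference between LPD and CD oncogene livers (3 libraries against 1) was -2.03 for type I and -0.33 for type II members, against -1.08 and 0.06 over all libraries. The oncogene difference on CD in that run (1 library against 1) was 2.15 for type I and 1.02 for type II members, against 1.31 and 0.50 over all libraries. The oncogene difference on LPD in that run (3 against 2) was 0.52 for type I and 1.06 for type II members, against 0.59 and 1.22 over all libraries.

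The interferons themselves were hardly detected. Of 21 interferon genes in the table, 17 had 0 counts in all 12 libraries, Ifnb1 and 13 genes of the alpha family among them, which allows a level of up to 0.0866 to 0.171 CPM depending on the library, counting error only. Ifng had 9 counts over 6 libraries, Ifnk 17 over 8, and Ifnab and Ifne 1 each. At this depth no comparison of ligands between groups was possible.

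Of 6 receptor chains 3 were higher and 1 was lower on CD, with and without replicate 3, where 18.7% of all genes were higher and 16.7% lower. Ifngr1, the ligand-binding chain for type II interferon, was at 19, 18.9 and 18.7 CPM in CD Vec and 163, 151 and 102 CPM in CD oncogene livers, and at 17.9, 22.9 and 20.7 CPM in LPD Vec and 52.1, 58.8 and 39.7 CPM in LPD oncogene livers. The groups of Ifngr1 did not overlap between Vec and oncogene or between the oncogene groups, and here replicate 3 was the lowest CD oncogene mouse. The oncogene effect on Ifngr1 was 2.88 on CD (SE 0.20, adjusted p = 7.59e-06) and 1.29 on LPD (SE 0.19, adjusted p = 0.00619), with an interaction of -1.59 (SE 0.26, adjusted p = 0.00624). Ifngr2 (0.53) and Il10rb (0.69) were the other chains that were higher, and Ifnar2 was lower (-0.34, adjusted p = 0.0486), while Ifnar1 and Ifnlr1 were not called. Stat3 was higher on CD (0.81, adjusted p = 0.0368), and of 5 inhibitors Socs3 alone (1.67, adjusted p = 0.00325), which was lower on LPD than on CD in oncogene livers (-1.30, adjusted p = 0.0200).

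Of 17 genes that act in nucleic acid sensing and upstream of interferon production, 4 were higher and 2 lower on CD, shares close to the 18.7% and 16.7% of all genes, and the counts were the same without replicate 3. The higher genes included Sting1 (1.07), the adaptor of DNA sensing, and Tlr7 (1.45), the endosomal receptor for RNA. The lower genes were Mavs (-0.91), the adaptor for Ifih1 and Ddx58, and Irf3 (-0.64). On LPD Tlr7 alone was higher (1.56, adjusted p = 0.0269).

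Further targets outside the member list were counted in the same classes. Of 45 tested type I targets, 21 were higher and 2 lower on CD, where 18.7% and 16.7% of all genes were, and without replicate 3 these counts were 11 and 3. On LPD edgeR called 0 of them, where 1.15% of all genes were higher, and 7 had an unadjusted p under 0.05. Of 20 tested type II targets, 8 were higher and 1 lower on CD (9 and 1 without replicate 3), and 3 were higher on LPD, namely the chemokines Cxcl9 (3.06, SE 0.53, adjusted p = 0.0174) and Cxcl10 (1.95, SE 0.38, adjusted p = 0.0275), which attract T cells, and the GTPase Tgtp1 (4.22, SE 0.64, adjusted p = 0.00788). These 3 were also higher on CD, by 2.43, 1.89 and 3.34. Between the oncogene groups, 8 type I targets were lower on LPD and 1, Ifitm1, was higher (1.28, adjusted p = 0.00627), where 11.3% of all genes were lower and 8.66% higher, and without CD oncogene replicate 3 these counts were 4 and 5. In that comparison 0 type II targets were called, with 3 at an unadjusted p under 0.05.

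Marker lists of other cells were summed in each library, and their counts called on CD are to be read against the 18.7% of all genes higher and 16.7% lower, and on LPD against 1.15% higher. Counts between the oncogene groups are to be read against 11.3% lower and 8.66% higher on LPD, and those in the interaction against 4.42% below 0. Macrophage markers summed to 108 to 246 CPM in CD Vec, 204 to 348 in CD oncogene, 164 to 209 in LPD Vec and 222 to 395 in LPD oncogene livers, with 3 of 10 higher on CD, with and without replicate 3, 0 called on LPD, where 6 had an unadjusted p under 0.05, and none at 0 in all libraries. The 3 that were higher on CD, Cd68, Trem2 and Ccr2, were lower on LPD than on CD in oncogene livers (-0.90, -2.81 and -1.24), while 5 of the 10 macrophage markers were above 0 in that comparison and the median was 0.08. The T and NK cell markers summed to 4.18 to 6.87, 6.56 to 9.96, 3.98 to 6.41 and 7.43 to 12.7 CPM in the same order, with 11 of 12 tested, 3 higher and 1 lower on CD (2 and 0 without replicate 3), and 0 called on LPD. For both lists the highest library was LPD oncogene replicate 3. CD oncogene replicate 3 was the highest of its group for macrophage markers (348 CPM against 254 and 204). For T and NK cell markers it was level with replicate 2 (9.96 and 9.91 CPM). For stellate cell markers it was the lowest of its group (164 CPM against 366 and 415). Neutrophil markers summed to 6.98 to 15.2 CPM in CD oncogene livers and to 1.36 to 3.54 CPM elsewhere, with Ly6g at or near 0. The 2 of 5 that were tested, S100a8 and S100a9, were both called higher on CD, lower on LPD than on CD in oncogene livers (median -2.25) and below 0 in the interaction. Markers of plasmacytoid dendritic cells, which make much type I interferon, summed to 15.8 to 19.6, 32.1 to 42.6, 18.5 to 19.7 and 23.5 to 27.6 CPM in the same order, but most of that sum was Tcf4, which other cells also express, and the defining marker Siglech had group means of 0.385 to 0.506 CPM. Stellate cell markers summed to 65.6 to 125 CPM in CD Vec, 164 to 415 in CD oncogene, 88.7 to 109 in LPD Vec and 110.3 to 136 in LPD oncogene livers, with 3 of 6 higher and 1 lower on CD (5 and 1 without replicate 3), and 3 lower and 1 higher on LPD than on CD in oncogene livers. The part of these cells in the results was not tested.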

How the data were processed

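RNA-seq of 12 mouse livers in 4 groups of 3 was analysed. The authors aligned reads to mm10 with HISAT2 and deposited raw counts per Entrez gene from featureCounts, whose versions, strand setting and treatment of multi-mapped reads are not given in the sources used here. The labels name an rRNA depletion kit, the study's methods mRNA. Columns call chow HPD. Symbols were matched for 25275 identifiers from RefSeq and 18 from GENCODE, with 1886 left without a symbol.

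The deposited counts were filtered with filterByExpr (13947 genes kept), scaled by TMM (factors 0.8638 to 1.122) and fitted in edgeR 4.0.16 (R 4.3.3) by robust quasi-likelihood with 1 coefficient per group over all 12 libraries. The common dispersion was 0.0537. The 5 contrasts were Benjamini-Hochberg adjusted over all genes tested at a threshold of 0.05, and each SE was taken as the log2 difference divided by the root of its F. Levels per kb use the summed exon length. Class levels per mouse used log2(CPM + 0.5). Figures were drawn with matplotlib 3.10.9. DESeq2 1.42.0, other scalings, no filter, a replicate block, header runs, 2-group fits and leaving out each library were alternatives. Tested on simulated data for the oncogene comparison on CD (13947 genes), the fit called 191 of 200 genes changed 4-fold (95.5%) and 3 unchanged genes. Every simulated gene had the common dispersion, and no simulated library stood apart. The share does not apply to members with a larger spread. Ifit3b, for example, was 3.65-fold higher on CD and was not called (adjusted p = 0.0735 by edgeR).

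Members and lists were chosen with earlier results of these data known. Values in every library are given for the members with the largest called changes of each class and comparison (up to 4, or the 2 largest where none was called), those called in 3 or more comparisons, and the highest per length in each class. Non-members are named where they belong to the pathway or were called. Intervals and floors cover counting error only. A result on 1 gene of the pathway is not reported here.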

Additional observations from a re-analysis of the deposited data

Results flagged for a closer look

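The oncogene effect differed between diets, by the interaction term of edgeR's quasi-likelihood test, for 1 of the 45 members and 3 related genes. Of all genes tested 4.49% were above 0 and 4.42% below 0 in the interaction, so these counts are no result about the lists. For Usp18 the effect on LPD minus that on CD was -1.42 (adjusted p = 0.0344, kept in 4 of 12 fits that leave out 1 library, and 0.0599 with the replicate block). With header runs, which leave 1 CD oncogene library, it was -1.52. For Ifngr1 it was -1.59 (adjusted p = 0.00624, kept in all 12). For Ly6e, an interferon-induced surface protein that stood at 516, 606 and 1173 CPM in CD oncogene livers and at 201, 267 and 203 CPM in LPD oncogene livers, it was -1.70 (adjusted p = 0.0314, kept in 7). For Gbp11, annotated as a transcribed pseudogene, it was 3.37 (adjusted p = 0.0359, kept in 3), and its CD Vec libraries spread from 8.10 to 50.8 CPM.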

How the results depend on the processing

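Of 47 calls of members over the comparisons, 21 were kept in every alternative that could be run and 26 in every fit that left out 1 library, and none was reversed. Leaving out 1 library at a time gave 20 to 35 members higher with the oncogenes on CD (20 without CD oncogene replicate 3), 1 to 6 higher on LPD (1 without LPD Vec replicate 2 or 3), 0 to 1 lower on LPD in Vec livers, 6 to 19 lower on LPD in oncogene livers (6 without LPD oncogene replicate 3, 7 without LPD oncogene replicate 1 and 9 without CD oncogene replicate 3), and 0 to 1 higher and 0 to 4 lower in the interaction. The other counts stayed at 0. Members higher on CD numbered 18 in a 2-group fit and 37 with total counts only, against 27. Members higher on LPD numbered 14 in a 2-group fit and 10 by DESeq2, against 3. Members lower on LPD in oncogene livers numbered 8 in a 2-group fit, against 16. DESeq2 called 1 member lower on LPD in Vec livers, against 0. In the interaction 2 members were lower with total counts only and 5 by DESeq2, against 1. Counts with header runs are left out where they rest on the CD oncogene livers, because that term leaves 1 library of that group. The cause of these shifts was not tested. With total counts only the median of all genes moved from -0.01 to 0.28 for the oncogenes on CD, where 4469 genes were higher and 1201 lower against 2603 and 2330, and the type II median on LPD in oncogene livers moved from 0.02 to -0.06.

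Replicate numbers did not pair the samples. Over 18 same-number pairs the correlation of deviations ran from -0.183 to 0.167, with 2 over 0.1, and 3 of 12 libraries correlated best with their own number. With the replicate block 5 members were higher on LPD and 0 were lower in the interaction, and 40 of the 47 calls were kept.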
